A study of Mus musculus with 4 samples.

Results

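The probe sets described here are those that the annotation of the array pairs with 2 or more gene symbols, so that 1 value stands for several genes. All annotated probe sets of the table were searched, and those that list a Zscan4 gene were left out. Of 41345 probe sets, 1810 carried 2 or more different symbols, 2 of these listed a Zscan4 gene, and 1808 remained. A further 4 annotation fields only repeated 1 symbol and were not counted. The other probe sets carried 1 symbol (23525) or none (16010). The rule uses no measured value, although earlier results of these data were known when it was made.

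The arrays were GeneAtlas arrays of mouse embryonic stem cells that lacked Prdm14 in every group, the empty vector control included. The cells were kept in 2i + LIF, a medium that holds a pair of kinase inhibitors and LIF, and grew on feeder cells of the fibroblast line STO. The labels name an empty vector in 1 group, the mouse protein PRDM14 in another, the PRDM14 of a sea urchin in the next, and both that protein and sea urchin CBFA2T in the last. Each group had 1 array of strip 2, so replicate error could not be estimated, the number of arrays limits the precision, and differences are described by size alone. The labels used here do not say whether the line is 1 clone or which promoter drives the vectors.

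PRDM14 is a zinc finger protein with a PR domain that works in germ cells and in naive pluripotency, and proteins of the CBFA2T family are co-repressors that bind it. The comparisons ask how far an orthologue from another animal acts in mouse cells that lack the endogenous gene. A probe set matches several genes where the genes are recent copies of one another, where a small RNA lies inside a host gene, or where neighbouring genes overlap. Mouse embryonic stem cell cultures are known to hold a small, changing fraction of cells that resemble the embryo at the cleavage stage in which its own genes are first transcribed. Several recently multiplied families are known for transcription in such cells, among them PRAME-like genes, which encode leucine-rich repeat proteins, and copies of Eif1a, which encodes a translation initiation factor.

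Promoter sequences are shown for genes that share a probe set described below and whose promoters are identical or nearly so. They come from RefSeq (GRCm38.p6) and run from 250 bases before to 50 bases after the annotated start. Of 2716 symbols of the shared probe sets, 1823 matched a promoter. In Gm6346 at chr5:93920035-93920334, plus strand, and Pramel40 at chr5:94297743-94298042, plus strand, capitals mark the 4 of 300 bases that differ. In Rex2 at chr4:147021600-147021899, plus strand, and Zfp600 at chr4:146156577-146156876, plus strand, capitals mark the 4 of 300 bases that differ, all others being equal.
Gm6346: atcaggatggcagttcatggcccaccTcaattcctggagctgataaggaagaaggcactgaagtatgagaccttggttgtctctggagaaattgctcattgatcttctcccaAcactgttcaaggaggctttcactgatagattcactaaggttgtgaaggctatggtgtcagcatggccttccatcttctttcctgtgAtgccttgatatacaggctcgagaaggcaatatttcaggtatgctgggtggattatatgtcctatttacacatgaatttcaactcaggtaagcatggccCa
Pramel40: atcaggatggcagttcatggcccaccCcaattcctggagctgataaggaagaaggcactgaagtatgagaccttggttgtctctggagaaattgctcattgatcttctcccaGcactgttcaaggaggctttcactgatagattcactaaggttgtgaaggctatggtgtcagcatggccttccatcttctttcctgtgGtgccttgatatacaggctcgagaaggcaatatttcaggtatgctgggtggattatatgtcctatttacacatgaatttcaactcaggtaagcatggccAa
Rex2: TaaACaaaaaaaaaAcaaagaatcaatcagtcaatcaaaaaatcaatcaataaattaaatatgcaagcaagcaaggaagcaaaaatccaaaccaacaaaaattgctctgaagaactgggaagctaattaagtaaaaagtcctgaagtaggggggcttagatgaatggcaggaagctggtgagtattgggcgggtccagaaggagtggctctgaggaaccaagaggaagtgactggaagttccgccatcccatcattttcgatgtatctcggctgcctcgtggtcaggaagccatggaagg
Zfp600: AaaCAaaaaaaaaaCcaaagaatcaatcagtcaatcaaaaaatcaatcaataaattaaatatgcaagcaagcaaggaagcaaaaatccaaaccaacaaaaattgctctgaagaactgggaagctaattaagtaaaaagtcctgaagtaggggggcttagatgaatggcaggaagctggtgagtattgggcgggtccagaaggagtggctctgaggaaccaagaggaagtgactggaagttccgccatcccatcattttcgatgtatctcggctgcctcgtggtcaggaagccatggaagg

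The promoters of Gm13057, on the plus strand at chr4:143551450-143551749, and Gm4301, on the plus strand at chr10:100335426-100335725, stand for identical copies. Gm13040, Gm13057 and Pramel20 matched at all 300 bases, and so did Gm4301 and Gm4312. Capitals mark TATAAA in the first and the reverse complement of CCAAT in the second.
Gm13057: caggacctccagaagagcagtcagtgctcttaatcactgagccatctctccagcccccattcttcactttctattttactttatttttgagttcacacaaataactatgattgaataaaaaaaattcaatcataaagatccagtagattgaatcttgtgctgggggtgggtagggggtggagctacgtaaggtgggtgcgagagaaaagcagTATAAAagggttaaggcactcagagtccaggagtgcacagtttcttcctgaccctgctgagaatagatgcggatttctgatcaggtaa
Gm4301: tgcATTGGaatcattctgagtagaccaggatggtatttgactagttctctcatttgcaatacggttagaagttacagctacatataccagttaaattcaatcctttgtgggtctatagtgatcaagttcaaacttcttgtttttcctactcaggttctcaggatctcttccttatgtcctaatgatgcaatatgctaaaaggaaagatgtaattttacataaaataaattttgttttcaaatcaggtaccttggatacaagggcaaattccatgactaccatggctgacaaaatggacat

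Aligned without gaps, Gm4301 shared 70 of 300 bases with Gm4303, although both genes are named on the same probe sets, and Gm4303, Gm4305 and Gm4307 matched one another at all 300. Pramel31 shared 85 of 300 bases with Gm13057. A second promoter of Zfp600, not printed, shared 90 of 300 bases with Rex2. The promoters of Zfp981, Zfp980 and Zfp979 shared 108, 84 and 77 of 300 with Rex2. Searched on both strands, TATAAA stood in 5 of 6 promoters of the Gm13040 group, in 3 of 3 of Pramel39, Pramel37 and Pramel50, in 0 of 3 of the Pramel40 group, in 0 of 7 of the Gm4301 to Gm4340 group, in 0 of 2 of the Gm2022 group, in 1 of 6 of the Zfp600 group, and in 13.6% of all 32851 promoters. CCAAT stood, in that order of groups, in 0 of 6, 3 of 3, 1 of 3, 7 of 7, 2 of 2 and 5 of 6, and in 37.4% of all. GGTCTCTAA, a consensus known for PRDM14, stood in none of the promoters of the groups compared and in 0.256% of all. No motif is contained in another, and these counts describe the windows only.

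Mature miRNAs are shown for a pair of probe sets, 1 of the mir-290 cluster, an embryonic stem cell cluster, and 1 with the lowest difference of all shared probe sets on the sea urchin PRDM14 array. Capitals mark the seed, bases 2 to 8. From RefSeq (GRCm38.p6), miR-291a-3p lies at chr7:3218968-3218989, miR-294-3p at chr7:3220691-3220712 and miR-295-3p at chr7:3220815-3220837, all on the plus strand. The 3 share the seed AAGUGCU.
miR-291a-3p: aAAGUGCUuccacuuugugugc
miR-294-3p: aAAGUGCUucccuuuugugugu
miR-295-3p: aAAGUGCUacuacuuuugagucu

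Mir24-1 and Mir3074-1 are 1 locus read from both strands. miR-24-3p at chr13:63301251-63301272 on the plus strand and miR-3074-5p at chr13:63301249-63301270 on the minus strand share 20 positions, and their seeds are different.
miR-24-3p: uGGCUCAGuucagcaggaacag
miR-3074-5p: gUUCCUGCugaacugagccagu

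Values are log2 levels as deposited, and a difference of 1 is 2-fold. Array medians were 4.54 to 4.55, and the median of all values, 4.55, serves as the mark for a dim probe set. The Prdm14 probe set read 5.71 on the empty vector array and 5.57, 5.77 and 5.53 on the arrays labelled mouse PRDM14, sea urchin PRDM14 and sea urchin PRDM14 with CBFA2T, so the label of the mouse array was not borne out by this gene. No source used here places its probes on the deleted or the introduced sequence, so it may check nothing. Arrays are therefore called by their labels. All 9 measured of 10 embryonic stem cell markers were at or above the median on all arrays (4.98 to 9.28), with array means between 6.66 and 6.89. Of 9 measured of 10 fibroblast markers, 5 were (2.76 to 6.05 over all 9), with array means between 4.89 and 4.96, and the part of feeder cells in the results was not tested.

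Most of the shared probe sets named few genes. There were 1137 with 2 symbols (62.9%), 240 with 3, and 431 with 4 or more, of which 130 had 10 or more and the largest number was 20. By place in the RefSeq annotation, 565 joined genes whose spans overlap, 393 joined neighbours within 5 genes, 586 joined genes farther apart on the same chromosome, 200 joined genes of different chromosomes, and 64 had fewer than 2 placed symbols.

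Many of the probe sets repeat one another. The 1808 probe sets carried 1281 different sets of names and 1614 different rows of values, and 299 had 4 values identical to those of another. The largest such block was 16 probe sets of Gm26504, Snord116l1 and Snord116l2, small nucleolar RNA copies, all at 3.76, 3.63, 3.70 and 3.62 in the order empty vector, mouse PRDM14, sea urchin PRDM14, and sea urchin PRDM14 with CBFA2T. That order is kept below. Identical rows are 1 measurement, so counts are given for probe sets and for different rows. In 33 cases identical rows carried different names. By level, 1014 probe sets reached the median on some array and 794 were below it on all 4.

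The array labelled sea urchin PRDM14 with CBFA2T stood apart. Against the empty vector array, 30 shared probe sets were at least 2-fold higher and 0 were 2-fold lower. Of all probe sets in the table, 0.467% were higher and 0.201% lower by that much, and of those with 1 symbol, 0.102% and 0.0255%. The 30 make 1.66% of the shared probe sets and hold 23 different rows and 10 sets of names. PRAME-like genes or predicted genes alone were named on 28 of the 30. On 10 of the 30 the empty vector value was below the median.

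Set against the array labelled sea urchin PRDM14, 26 probe sets (19 rows, 8 sets of names) were higher and 0 lower, where 0.302% of all probe sets were higher and 0.189% lower. At 1.5-fold, 51 probe sets were higher and 5 lower than with the empty vector, against 1.43% and 1.08% of all, and 42 were higher and 1 lower than with sea urchin PRDM14, against 1.06% and 0.81%. Of probe sets with 1 symbol, 0.37% and 0.221% passed 1.5-fold in the first of these comparisons and 0.255% and 0.128% in the other. All 26 were among the 30. Both comparisons use the same CBFA2T array, so they are not separate evidence. On 24 probe sets (1.33%) that array lay 2-fold above each of the other 3, as it did on 0.177% of all probe sets. The empty vector, mouse PRDM14 and sea urchin PRDM14 arrays did so on 0 shared probe sets and on 0.029%, 0.0314% and 0.0242% of all. The 30 were 25 of the 586 that join genes farther apart on a chromosome and 5 of the 393 that join neighbours, with 0 of the 565 overlapping and 0 of the 200 on different chromosomes. Probe sets of the Gm4301 to Gm4340 group fell in both of the first classes. The split thus counts probe sets that share names and rows, not separate families. RNA of a whole culture cannot tell more cells of a type from more RNA per cell.

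**Figure D1:**
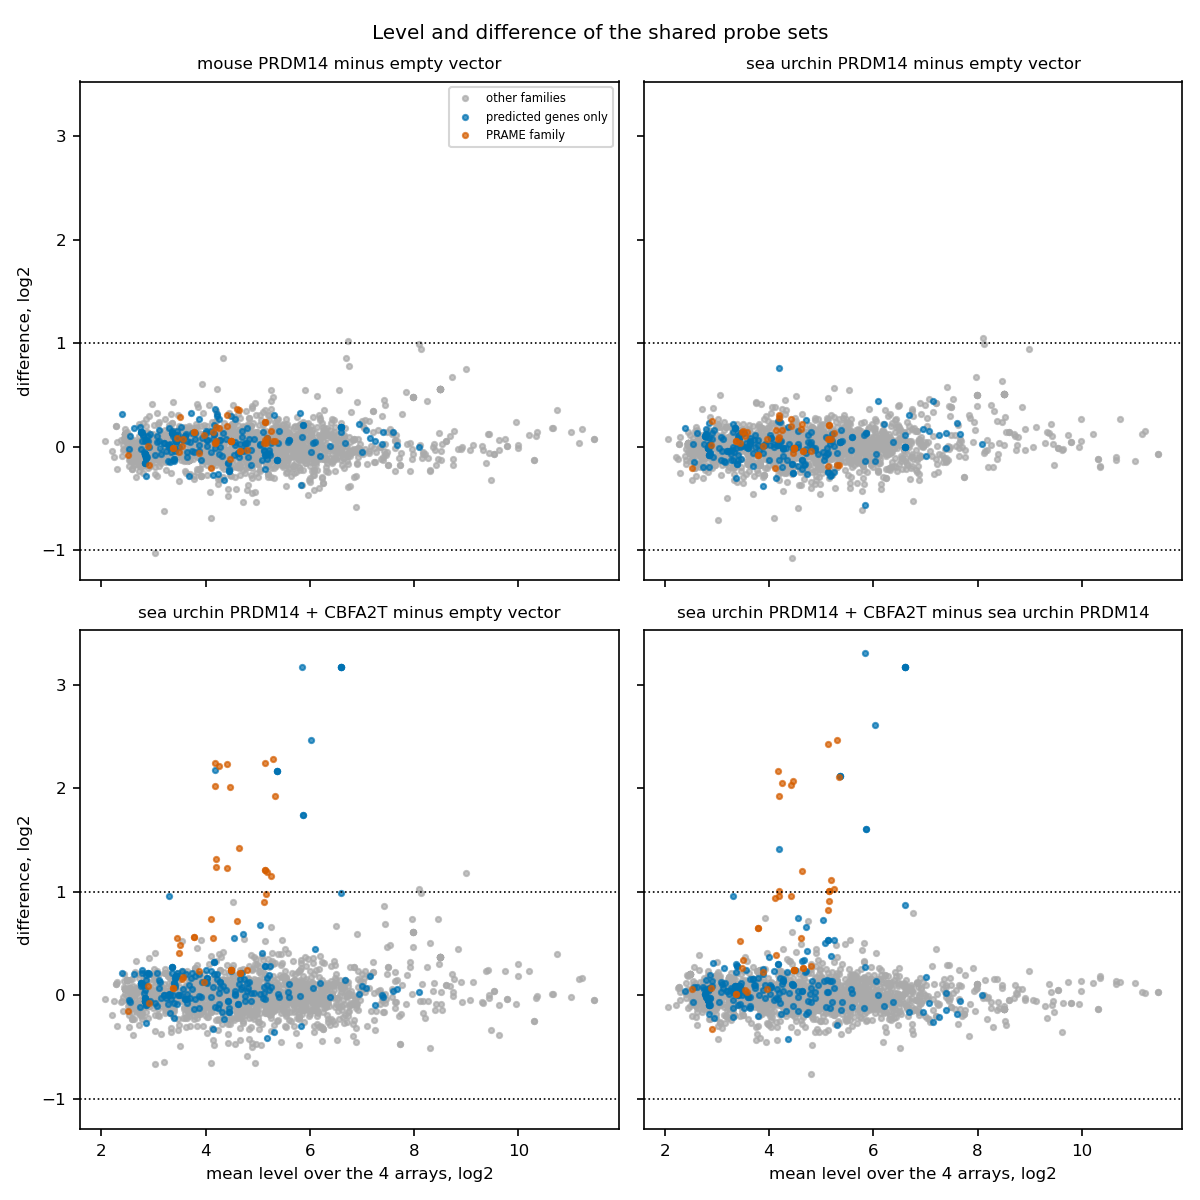
Difference between 2 arrays on the y axis (log2) against the mean level over the 4 arrays on the x axis (log2), for the 1808 shared probe sets, with PRAME-like genes in orange, probe sets of predicted genes alone in blue and all others in grey. Dotted lines mark 2-fold. The points past the upper line number 1 for mouse PRDM14, 1 for sea urchin PRDM14, 30 for sea urchin PRDM14 with CBFA2T and 26 for CBFA2T added to sea urchin PRDM14.

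The largest differences belonged to 7 predicted genes of chromosome 10, Gm4301, Gm4302, Gm4303, Gm4305, Gm4307, Gm4312 and Gm4340. They were named on 11 probe sets with 5 different rows. The row for Gm4340, Gm4301, Gm4312, Gm4302 and 3 others, which 4 probe sets share, read 5.76, 5.95, 5.76 and 8.93. The first 3 arrays lay within 0.19 of each other and the array with CBFA2T was 3.17 above the empty vector array, a 9.03-fold difference. The probe set of Gm4340, Gm4301 and Gm4312 read 5.07, 5.16, 4.93 and 8.24, which is 3.17 above the empty vector array and 3.31 above the sea urchin PRDM14 array.

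A row of 3 probe sets that lists Gm4301 first read 4.85, 4.72, 4.90 and 7.02, and a row of 2 that lists Gm4302 first read 5.34, 5.56, 5.48 and 7.09. The probe set with the smallest difference read 6.29, 6.44, 6.40 and 7.28, just under 2-fold at 0.99. All 11 were higher with CBFA2T, by 0.99 to 3.17, and none differed by more than 0.21 with mouse PRDM14 or 0.14 with sea urchin PRDM14 alone. A probe set of Gm4340 alone read 5.20 on the empty vector array, and the other arrays were 0.18, 0.07 and 0.79 higher. Probe sets of the same gene thus gave differences between 0.79 and 3.17.

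Copies of Eif1a on chromosome 12 gave 3 probe sets. Gm4027, BB287469, Gm5039 and Gm2022 shared a probe set at 5.46, 5.40, 5.32 and 7.92, which was 5.53-fold higher with CBFA2T than with the empty vector. Gm5039 and Gm5662 read 3.07, 3.07, 3.06 and 4.03, just under 2-fold, and the probe set of BB287469 and Gm4027 was 0.21 higher. Both were dim on all arrays. Single-gene probe sets of the same genes read 6.17, 5.98, 5.56 and 7.69 for Gm2022, and 2.47, 2.42, 2.42 and 6.34 for Gm5662, a difference of 3.87 with CBFA2T. A second Gm5662 probe set read 2.97, 3.03, 3.11 and 3.52, a difference of 0.55. The array with CBFA2T was the highest on each of these.

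The PRAME family had 42 shared probe sets with 35 different rows. With CBFA2T, 16 were 2-fold and 20 were 1.5-fold higher than with the empty vector, and 40 of 42 lay above 0, as did 49.3% of all probe sets. Their median difference was 0.57, beside -0.0025 over all probe sets and 0.03 over 39 probe sets with 1 PRAME-like symbol. With mouse PRDM14 the median was 0.06 and with sea urchin PRDM14 0.07, and none passed 2-fold. At 2-fold 0.467% of all probe sets were higher with CBFA2T, and at 1.5-fold 1.43%. Of the 39 with 1 PRAME-like symbol, 1 was past 2-fold with CBFA2T against the empty vector, at 1.63, and 25 lay above 0.

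Within the family the difference varied between groups of copies. On chromosome 4, Gm13040, Gm13057, Gm13043, Pramel31, Pramel20 and Pramel16 shared 3 probe sets. The one with the largest difference read 4.76, 4.82, 4.58 and 7.04, a 4.87-fold difference, and the others were 1.93 and 2.24 higher. With sea urchin PRDM14 alone all 3 were 0.18 lower than with the empty vector. Single-gene probe sets differed less with CBFA2T, by 0.53 for Pramel20 at 6.42, 6.63, 6.46 and 6.94, by 0.19 for Pramel16 and by -0.12 for Pramel31, the last pair reading 2.45 to 2.79.

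On chromosome 5, LOC100862180, Gm7982, LOC624931, Gm6351 and others, Pramel40 among them, shared 5 probe sets, and Gm6348 and Gm6346 a sixth. By its names that last probe set is of predicted genes alone, so the PRAME family counts above leave it out. Over the 6, levels were 3.36 to 4.01, 3.62 to 3.96, 3.66 to 4.12 and 5.54 to 6.02. All 6 were at least 2-fold higher with CBFA2T than with the empty vector, as were 0.467% of all probe sets. The 6 share names and each group had 1 array, so they are not replicates. The first 3 arrays were below the median throughout, and the differences were 2.01 to 2.25. The promoters of Gm6346 and Pramel40 are those printed above. The Gm6348 and Gm6346 probe set stood out from the other 5 with sea urchin PRDM14, at 3.36, 3.72, 4.12 and 5.54.

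Pramel39, Pramel37, Pramel50 and BC080696, also on chromosome 5, were named on 11 probe sets (10 rows), which were 0.74 to 1.43 higher with CBFA2T, 8 of them past 2-fold, as were 0.467% of all probe sets. The probe set with the largest difference read 4.14, 4.50, 4.36 and 5.57. Smaller differences were seen for Pramel34, Gm6367 and Pramel47 (5 probe sets, 0.56 to 0.72), with LOC100862150 and AA792892, linked to them by name, at 0.0038, and for the group of Pramel42, Gm16513 and Pramel48 (12 probe sets, -0.15 to 0.49). On the X chromosome, 3 probe sets of Pramel3 and its copies were 0.07 to 0.18 higher and read 3.33 to 3.65 on all arrays. Of the single-gene probe sets of Pramel34, the brighter read 6.19, 6.08, 6.26 and 6.05 and the other 2.73, 2.68, 2.73 and 2.74. These 3 groups were chosen for description after their values were seen.

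**Figure D2:**
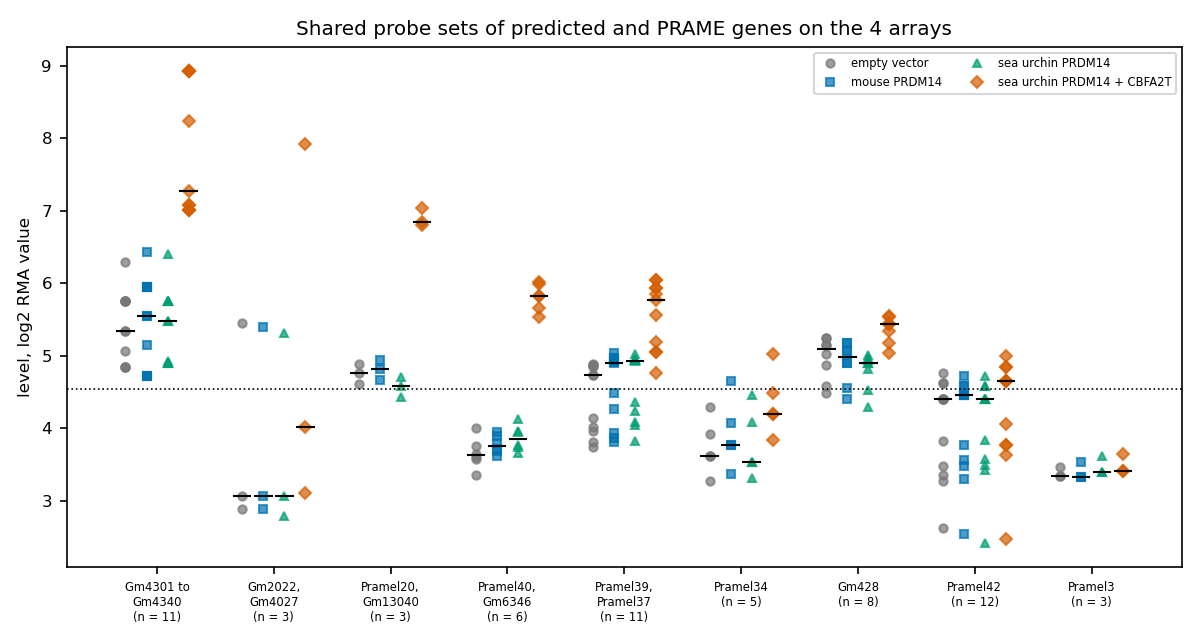
Log2 level (y axis) of every shared probe set in 9 groups of predicted and PRAME-like genes (x axis, with the number of probe sets) on the 4 arrays, 1 symbol shape and colour per array. Black bars are medians and the dotted line is the median of all values, 4.55. Probe sets of a group largely share names and are not replicates. The diamonds of the array labelled sea urchin PRDM14 with CBFA2T lie clear of the other 3 arrays for Gm4301 to Gm4340, the Pramel20 group and the Pramel40 group, overlap partly for Pramel39, and coincide for Pramel3.

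A predicted family on chromosome 4, Gm428, Gm13871, Gm11758, Gm38423 and up to 5 others, was chosen after its values were seen. Its 8 probe sets (7 rows) read 4.48 to 5.25, 4.40 to 5.17, 4.30 to 5.01 and 5.04 to 5.55. The difference with CBFA2T was 0.10 to 0.68 against the empty vector and 0.38 to 0.74 against sea urchin PRDM14, where 49.3% and 50.3% of all probe sets lay above 0. Duxbl2, Duxbl1 and Duxbl3, double homeobox genes, stayed within 0.15 on all arrays in 3 probe sets, at 4.75 to 4.99.

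Krüppel-type zinc finger genes of the distal part of chromosome 4 are a recently expanded family with few differences between copies. Zfp600, Zfp979, Zfp980, Zfp981 and Rex2 shared a probe set at 8.27, 9.02, 9.21 and 9.45. It was higher on all 3 arrays with a PRDM14, by 0.75, 0.94 and 1.18, and past 2-fold only on the last. Single-gene probe sets of the same genes varied, Rex2 reading 5.07 on the empty vector array and 1.26, 1.63 and 1.93 more on the others, and Zfp600 reading 3.31, 3.79, 3.91 and 4.03. Zfp981 was higher by 0.27, 1.38 and 1.46 and Zfp980 by 0.43, 0.44 and 0.37. Of 3 probe sets of Zfp979, 1 was higher by 0.60, 0.32 and 0.39, 1 lay within 0.04, and 1 was at -0.28, -0.22 and -0.23.

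The neighbouring set of Zfp992, Znf41-ps, Zfp991 and Zfp993 read 7.08, 7.48, 7.47 and 7.77, and Zfp991 with Zfp993 read 4.81, 5.36, 5.38 and 5.47. Each set of names had a second probe set, the first at 5.64, 5.81, 5.88 and 5.99 and the other, dim and lowest with CBFA2T, at 2.83, 2.74, 2.74 and 2.65. Gm10324 and Zfp640 read 6.95, 7.40, 7.52 and 7.81, and 3 probe sets of Zfp640 alone were higher with CBFA2T by 1.01 to 1.84. A probe set of Gm10324 alone read 6.82, 6.91, 7.28 and 7.58, which is 0.76 higher with CBFA2T. A chromosome 2 family with Zfp966, Zfp967, Zfp968, Zfp970 and Zfp971 was chosen after its values were seen. With sea urchin PRDM14 it was 0.06 to 0.46 higher in 13 of 13 probe sets. With mouse PRDM14 the differences were -0.05 to 0.35, with a median of 0.17, and with CBFA2T -0.06 to 0.23. Of all probe sets 49.1% lay above 0 with sea urchin PRDM14, and the 13 share names. Over the 51 zinc finger probe sets the medians were 0.07, 0.10 and 0.04 in the 3 comparisons with the empty vector, beside 0.0017, -0.0030 and -0.0025 over all probe sets.

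Among small RNAs, a few probe sets were lowest on the empty vector array and alike on the other 3. Over all 24 small nucleolar RNA probe sets the medians against the empty vector were -0.13, -0.06 and -0.14. Of the 24, 16 are the identical block of Snord116l1 and Snord116l2 described above. Snord1c and Snord1b, C/D box small nucleolar RNAs that guide methylation of ribosomal RNA, had 2 probe sets, at 7.34, 8.32, 8.38 and 8.36 and at 7.40, 8.34, 8.38 and 8.38. The empty vector array was low on both, by 0.94 to 1.05, and the other 3 arrays lay within 0.06. Snord1b alone read 7.48, 8.48, 8.59 and 8.64.

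U1 and U3 RNAs, of the spliceosome and of ribosomal RNA processing, were also lowest on the empty vector array. Rnu1b1, Rnu1b2 and Rnu1b6 read 8.14, 8.70, 8.65 and 8.51 in 9 identical probe sets, and Rnu3b1, Rnu3b2, Rnu3b4 and Rnu3b3 read 7.59, 8.07, 8.09 and 8.20 in 4. These 13 probe sets are 2 measurements. All these comparisons share the empty vector array, so 1 low array and 3 high arrays cannot be told apart here.

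With mouse PRDM14, 1 shared probe set was 2-fold higher than with the empty vector and 1 was 2-fold lower. Each makes 0.0553% of the shared probe sets. Of all probe sets 0.256% were higher and 0.198% lower, but 98 of these 106 and 78 of these 82 carried no symbol. Of probe sets with 1 symbol, 0.0298% were higher and 0.0128% lower. Gm10420, Gm5978 and Rps2, a ribosomal protein gene with copies, read 6.37, 7.38, 6.73 and 6.46, while a second probe set of the same 3 genes read 6.65, 6.65, 6.70 and 6.78. At 2-fold lower was 1 probe set of the histone genes H2bc15, H2bc13, H2bc11 and H2bc7, at 3.63, 2.60, 2.92 and 2.96, dim on all arrays. The other probe sets of these genes read 9.93, 9.92, 9.98 and 10.11, and 2.56, 2.46, 2.75 and 2.66. Neither difference was thus seen on the other probe sets of the same genes.

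At 1.5-fold, 9 probe sets (0.498%) were higher and 4 (0.221%) lower with mouse PRDM14. Of all probe sets 1.28% and 0.863% were, and of those with 1 symbol 0.187% and 0.123%. Those highest on the mouse array alone included both probe sets of Top2a and Taf1d, at 6.47, 7.33, 6.47 and 6.48 and at 6.60, 7.38, 6.53 and 6.50, chosen after their values were seen. Top2a encodes a topoisomerase of dividing cells, and its own probe set read 6.79, 6.91, 7.32 and 7.19, which is a different order. The 11 probe sets of Taf1d alone, a subunit of a transcription factor of RNA polymerase I, differed by -0.32 to 0.56 with mouse PRDM14, with medians of 0.31, 0.02 and 0.22 in the 3 comparisons with the empty vector. Snord57 with its host Nop56 read 8.48, 9.16, 8.59 and 8.69, and Hmgn2 with 4 copies read 3.70, 4.31, 3.85 and 3.87.

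The array labelled sea urchin PRDM14 had 1 shared probe set 2-fold above the empty vector array and 1 below it, each 0.0553% of the shared probe sets. Of all probe sets 0.239% were above and 0.167% below, and of those with 1 symbol 0.017% and 0.00425%. At 1.5-fold 6 (0.332%) were higher and 5 (0.277%) lower, against 1.13% and 1.02% of all and 0.225% and 0.149% of those with 1 symbol. The higher at 2-fold was the first Snord1c and Snord1b probe set above. The lower at 2-fold was Mir24-1 with Mir3074-1, whose sequences are printed above, at 4.94, 4.46, 3.87 and 4.48, a difference of -1.07. A second probe set of the same pair read 2.60, 2.56, 2.54 and 2.55, and the copies Mir24-2 and Mir3074-2 read 2.91, 2.97, 2.90 and 2.99 and 2.64, 2.67, 2.66 and 2.60.

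Histone H3.3 probe sets of H3f3b, Gm12657, Gm6749, H3f3c and H3f3a read 8.15, 8.04, 8.78 and 8.89, and 7.64, 7.52, 8.31 and 8.38, higher on both sea urchin arrays and not on the mouse array. Over all 7 probe sets of H3f3a and H3f3b the median difference from the empty vector was -0.02 on the sea urchin PRDM14 array and 0.13 on the array with CBFA2T. Mfap1b and Mfap1a, chosen after their values were seen, read 4.61, 3.92, 3.92 and 3.96 in 1 probe set and 2.97, 3.20, 3.06 and 3.17 in another.

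**Figure D3:**
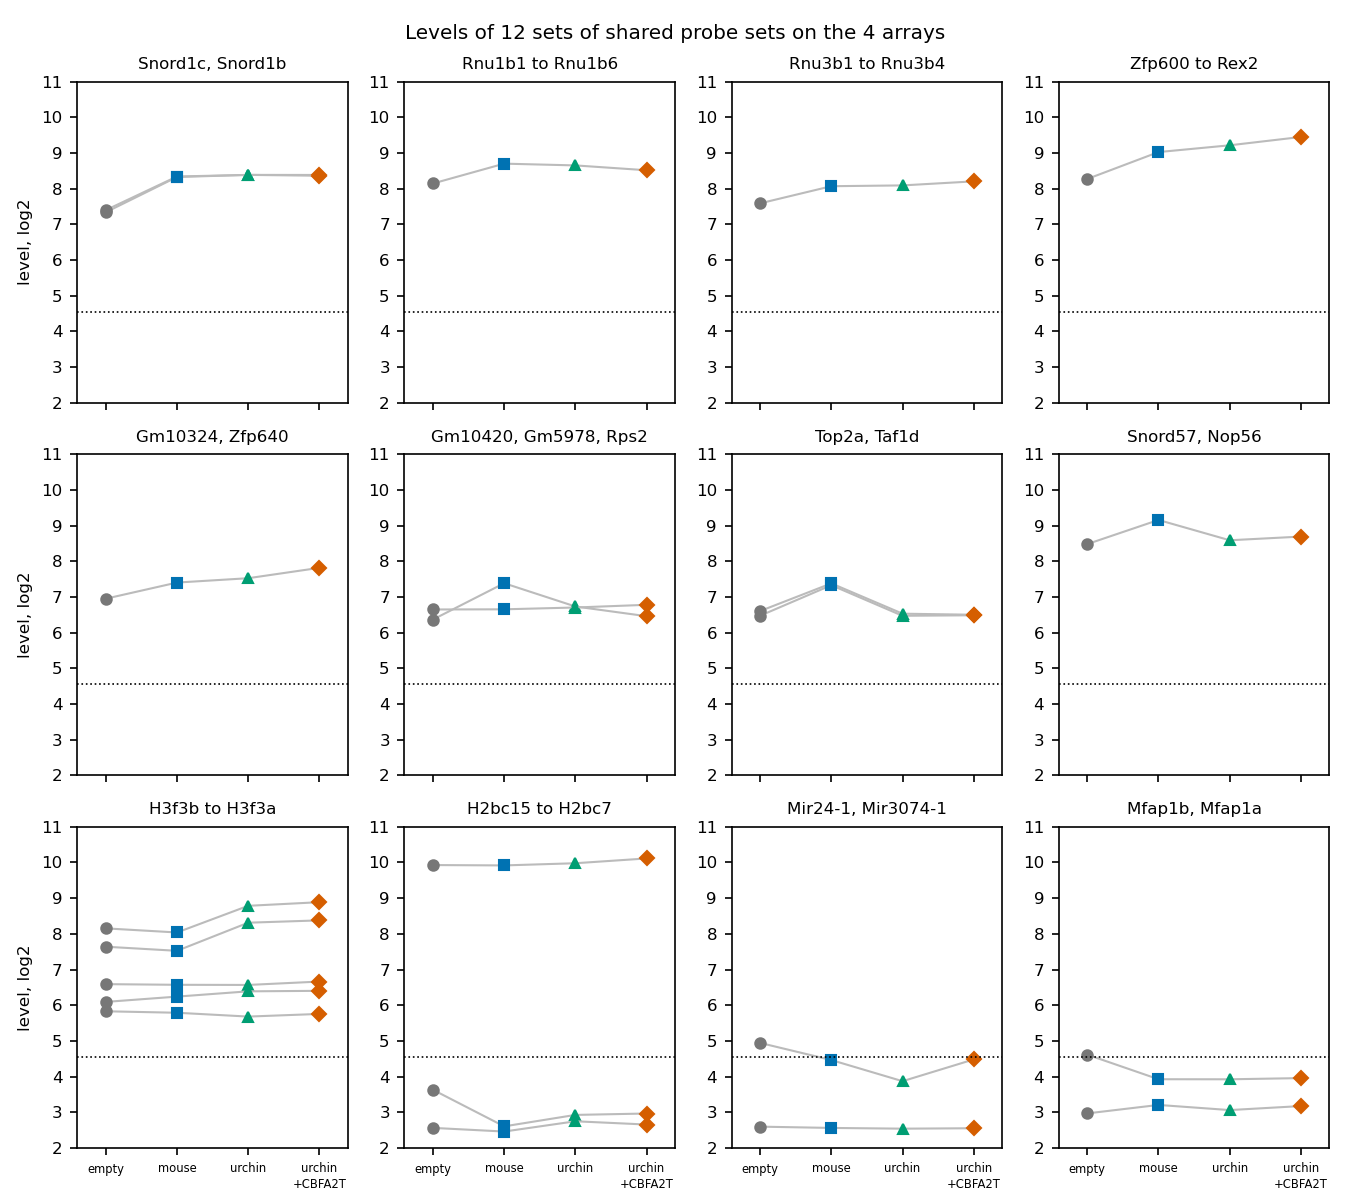
Log2 level (y axis) on each of the 4 arrays (x axis) for 12 sets of shared probe sets outside the PRAME and predicted families, 1 line per different row of values. The dotted line is the median of all values, 4.55. Snord1c with Snord1b and both Rnu sets are lowest on the empty vector array, Top2a with Taf1d is highest on the mouse array, and for H2bc15, Mir24-1 and Mfap1b the probe sets of 1 set of names lie at different levels.

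Other host genes and small RNAs made 97 probe sets, with medians of 0.03, 0.04 and 0.01 in the 3 comparisons with the empty vector. The mir-290 cluster probe set, with Mir292, Mir295, Mir291a, Mir291b and others, read 4.47, 4.71, 4.51 and 4.57, within 0.24 on all arrays. Mir25 with its host Mcm7, a replication licensing gene, read 6.60, 6.63, 6.50 and 6.49. Snora81 with Eif4a2 read 4.13, 4.32, 4.62 and 5.03, while 3 probe sets of Eif4a2 alone were 0.15 to 0.29 higher with CBFA2T. In the imprinted Dlk1-Dio3 region, 11 probe sets of Rtl1, Mirg and Meg3 with small RNAs differed by -0.65 to 0.16 with CBFA2T. The lowest was Meg3 with Mir1906-1 and Mir1906-2 at 5.30, 4.86, 5.01 and 4.66. A probe set of Meg3 alone read 4.83, 4.91, 4.94 and 4.93, which is 0.10 higher with CBFA2T.

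Genes of other tissues made up most of the remaining families. Multicopy genes of the X and Y chromosomes, such as the sperm-specific Sly and Slx genes, had 102 probe sets. Their medians lay between -0.05 and 0.02 in the 4 comparisons. By the mean over the 4 arrays, 9 of the 102 were at or above the median of all values. The 62 vomeronasal receptor probe sets, of which 3 reached it by the same mean, had medians of 0.00, -0.0016, -0.0080 and 0.02. Chemokine copies (33 probe sets, Ccl21, Ccl27 and Ccl19 among them) reached it by that mean on 30, and their differences stayed within -0.18 and 0.22. No probe set of these 3 families passed 1.5-fold. In 1 direction of 1 comparison, 0.81% to 1.43% of all probe sets did so, and 0.123% to 0.37% of those with 1 symbol.

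The member of each smaller family with the largest difference is given next. Olfr151 with Olfr160, olfactory receptors, was 0.42 higher with sea urchin PRDM14, and Vmn2r85 with 2 others 0.41 lower with CBFA2T than with sea urchin PRDM14. For immune families, H2-Q6 with H2-Q8 was 0.41 higher in that comparison, Sp110 with A530040E14Rik was 0.72 higher and the Cd300ld5 set was 0.51 higher. Against the empty vector, the array with CBFA2T had a pair of immunoglobulin kappa segments at 0.49, Tgtp2 with Tgtp1 at -0.35, Fbxw10 with Trim16 at -0.42 and the keratinocyte genes Sprr2a2, Sprr2a1 and Sprr2a3 at 0.52.

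In the same comparison Eif2s3x with Gm2223 was at -0.48, Cyp4a10 with Cyp4a31 at -0.49, the Ott and Luzp4 set at 0.31, and Speer4e with 2 others at 0.38. Gstp1 with Gstp2 was 0.36 higher with mouse PRDM14, Tuba4a with Stk16 0.55 higher, Scgb2b20 with Scgb2b7 0.18 higher and Dnajc17 with Zfyve19 0.37 lower. With sea urchin PRDM14, Defa33 with 2 others was 0.38 higher, the haemoglobin genes Hbb-b1, Hbb-b2 and Hbb-bs 0.37 higher and the Ccl21c set 0.22 higher. Amy2a5 with Amy2a2 was 0.19 lower and the Nlrp4e set 0.20 lower on the array with CBFA2T than on the sea urchin PRDM14 array. None of these differences reached 2-fold.

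**Figure D4:**
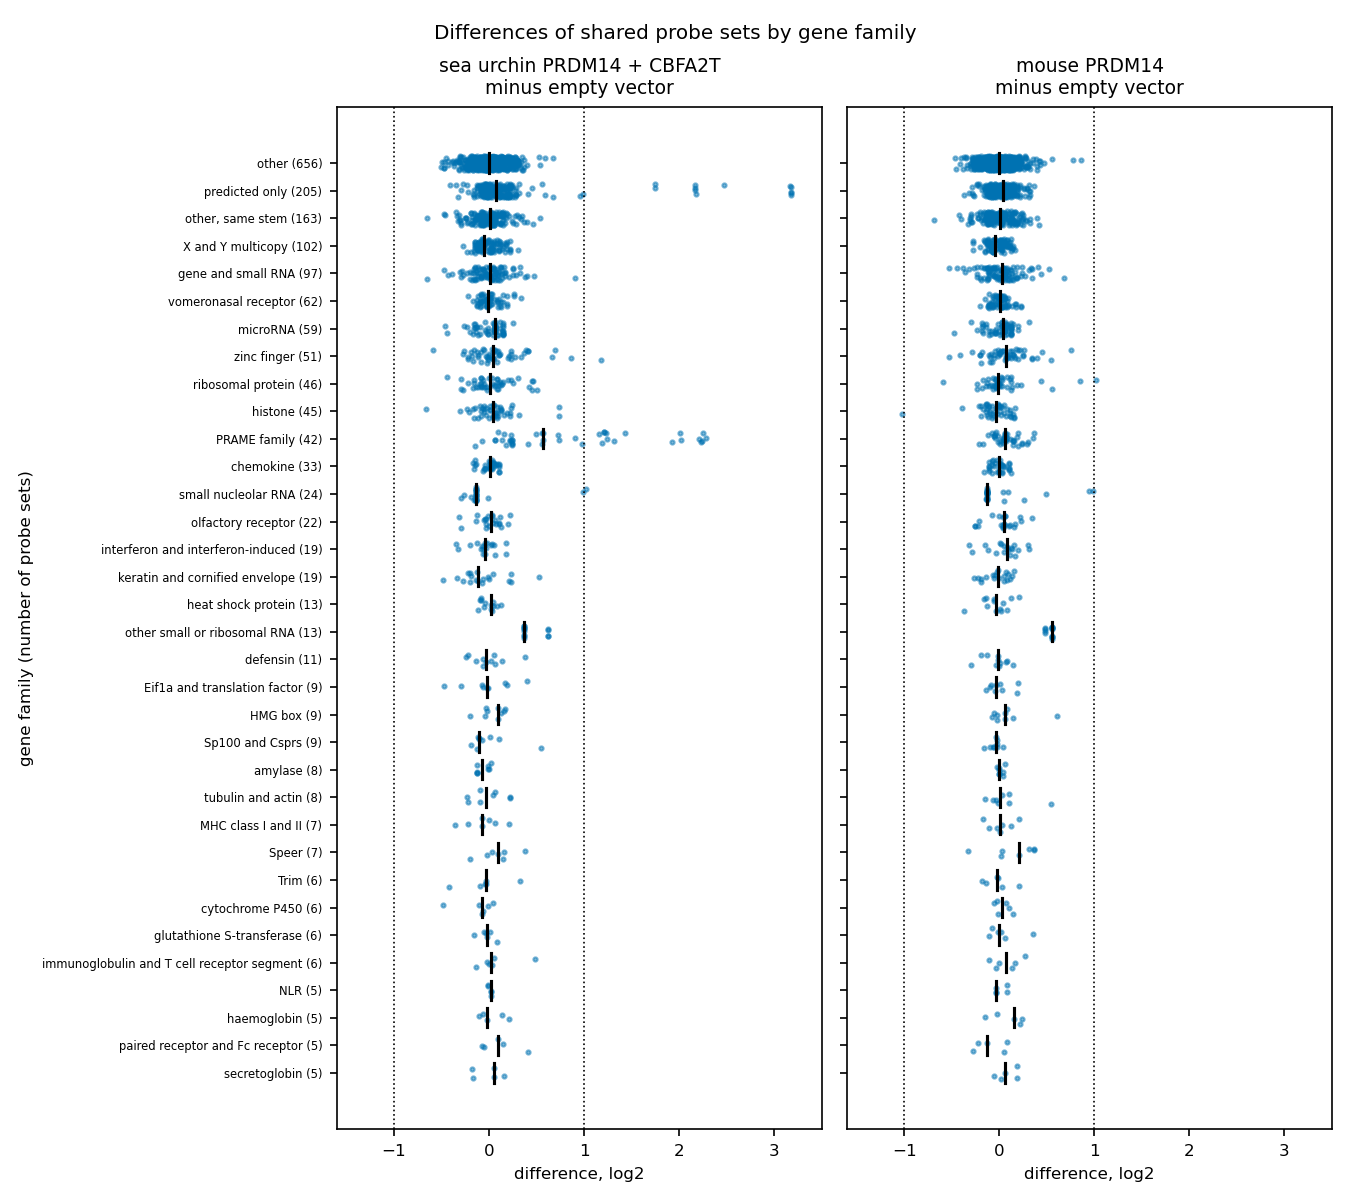
Log2 difference (x axis) of each shared probe set, by gene family (y axis, with the number of probe sets), for sea urchin PRDM14 with CBFA2T (left) and mouse PRDM14 (right) against the empty vector. Black bars are family medians and dotted lines mark 2-fold. On the left the PRAME family median is 0.57 and a tail of predicted genes reaches 3.17, and on the right 1 ribosomal protein and 1 histone probe set lie past the lines.

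Probe sets with several symbols could be set beside a single-gene probe set for 1140 of 1808. The median size of the gap between the difference of a shared probe set and the median of its genes' own probe sets was 0.10 for mouse PRDM14, 0.13 for sea urchin PRDM14 and 0.14 with CBFA2T. The gap passed 2-fold for 1, 0 and 10 probe sets, and for 11 when CBFA2T was compared with sea urchin PRDM14 alone. Of 12 shared probe sets of this kind past 2-fold with CBFA2T, 2 had a partner median past 2-fold in the same direction. The probe set of Zfp600 to Rex2 (1.18) is not among the 2, although Rex2 alone (1.93) and Zfp981 alone (1.46) passed 2-fold. Several of the 12 share names and rest on the same single-gene probe sets, so they are not separate comparisons.

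The brightest shared probe sets differed little between arrays. Gm12070 with Gapdh, a glycolytic enzyme, read 11.46, 11.54, 11.39 and 11.42 in 2 identical probe sets, and Rmrp with Ccdc107 read 11.10, 11.27, 11.25 and 11.27. ATP6, Gm10925 and ATP8, of the mitochondrial ATP synthase, read 11.08, 11.11, 11.20 and 11.23. Over all 1808, the median differences were 0.0092, 0.0034, 0.0069 and 0.0046 in the 4 comparisons.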

How the data were processed

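Total RNA was measured on 4 arrays, 1 per group. The deposited log2 values were made by the authors with RMA (background correction, equal distributions, summary per probe set), per the submitters' processing notes. Which version and build were used, and which arrays were normalized jointly, is not given in the sources used. Equal distributions would hide a shift shared by most genes, and background pulls dim folds toward 1. Another strip that the series mentions was not analysed here.

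Symbols came from the platform annotation, of which 2630 of 2718 gene identifiers were found in the RefSeq table (GRCm38.p6), used for names and neighbours. Families were assigned by 50 symbol patterns, 2 of them corrected after the values were seen (Zfyve19 had been taken for a Y-linked gene). The members and lists were chosen with earlier results of these data known. Differences were called at 2-fold, with no filter and no test. The calling code was also run on simulated rows with shifts larger than the threshold. That run checks the code only and says nothing of the error of these arrays. Named by rule were up to 10 probe sets per direction and comparison past 2-fold, the largest difference of each family with 5 or more members, and the 3 brightest. Any other probe set or group named above was chosen after its values were seen, also where the text does not say so. Alternatives were filters at the median and the 75th percentile, cyclic loess, a 1.5-fold threshold, merged names, and probe sets with 2 or more established names. Python 3.11.15, pandas 2.3.3, numpy 2.4.6, matplotlib 3.10.9, limma 3.58.1 and R 4.3.3 served for this.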

Additional observations from a re-analysis of the deposited data

How the results depend on the processing

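No paired analysis was possible because each group had 1 array and the labels give no replicate numbers. Against the empty vector, the 30 probe sets higher with CBFA2T became 10 with identical names averaged, 12 with 2 or more established names and 51 at 1.5-fold, and the 26 against sea urchin PRDM14 became 8, 9 and 42. At 1.5-fold, 5 were lower with CBFA2T than with the empty vector and 1 than with sea urchin PRDM14, 9 were higher and 4 lower with mouse PRDM14, and 6 higher and 5 lower with sea urchin PRDM14. The single probe set higher with mouse PRDM14 became 0 with averaged names and with established names only, and the lower one 0 under each filter and with averaged names. For sea urchin PRDM14, the higher one became 0 with established names only, and the lower one 0 under the filters on the mean and the 75th percentile, with averaged names and with established names only. Counts under the other settings, among them cyclic loess and identical rows counted once (chosen after seeing the data), stayed within 1.5 times. Of 800 family medians under these settings, 722 moved by less than 0.1, and the PRAME median with CBFA2T was 0.57 under cyclic loess, 0.74 with identical rows counted once and 0.98 with established names only. It was 1.17, 1.21 and 1.93 under the filters, which keep PRAME probe sets by a value that includes the array on which they were high, so these medians are set by the filter. Detection depends on signal over background, for which these values carry no call.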
